A study of Rattus norvegicus with 12 samples.

Results

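The extracellular signal-regulated kinase ERK1, encoded by Mapk3, was examined together with 8 genes that answer to it: Fos, Fosl1, Jun and Egr1, which encode immediate-early transcription factors, Etv4 and Etv5, which encode ETS transcription factors of the PEA3 group, and the feedback inhibitors Dusp6 and Spry4. These 9 genes, of 26456 gene names on the array, were picked out on the arrays by their symbol in the annotation. They were read by 12 probes. ERK1 is the last kinase of the RAS, RAF and MEK relay that growth factor receptors switch on, and it acts by phosphorylating other proteins. In many cells its activity is followed within minutes by transcription of the immediate-early genes and somewhat later by that of Dusp6, Spry4, Etv4 and Etv5, of which the first pair restrain the relay. In the mammary gland the relay runs below the receptors that drive branching of the ducts. The arrays measured RNA only, so neither phosphorylation nor activity of the kinase was read.

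Total RNA of the lumbar mammary gland of female Wistar rats was hybridised to one-colour arrays, 1 rat per array, with 3 rats in each of 4 groups. The mothers had eaten 25 g a day of a diet with 17.0% protein (NP) or 8.8% protein (LP) throughout pregnancy, and the offspring were examined on day of life 21, at weaning, or on day 28, after 1 week of standard chow. Litters of both groups had been reduced to 6 females at birth, and the mothers of both groups received standard chow while nursing. Which rats shared a litter was not given, so p-values measure the spread between these rats only. Levels are log2 signals relative to the 75th percentile of the gene spots of each array, so a level of 0 lies at that percentile and 1 unit is a factor of 2. Levels of different probes are not compared with each other.

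Between 74.8% and 79.6% of gene spots were well above background on each array, and none was saturated. All day 21 arrays lay on 1 slide and all day 28 arrays on another, so day and slide cannot be told apart. Every NP array lay in row 1 of its slide. LP rats 6a and 7c of day 21 and 6f and 7f of day 28 lay in row 2, so diet and row are partly confounded. A pair of arrays stood apart from the rest. LP rat 6a of day 21 had the lowest median correlation with the other arrays (0.960), and NP rat 4f of day 28 the next lowest (0.974). On the array of LP rat 6a the mean log2 signal of 12 lymphocyte markers was -5.59 against -1.06 to 0.15 on the other 11 arrays, with 8 of the 12 markers well above background and the T cell gene Cd3e at -7.12, while the mean of 15 luminal epithelial markers was the highest of all (0.47). NP rat 4f had the lowest luminal (-1.67) and basal (-1.43) marker levels. Visible lymph nodes had been cut away before freezing, and RNA from a gland holds all its cell types, so a change in the number of cells and a change of RNA per cell cannot be told apart.

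The probes for Etv4 and Etv5 are shown because Etv4 and Etv5 vary together from rat to rat, as described further on, and because these oligonucleotides report spliced RNA. On the rn4 build the 60 bases of the Etv4 probe were placed at chr10:90810133-90810380 on the minus strand, a span of 248 bases, and those of the second Etv5 probe at chr11:80893869-80899401 on the plus strand, a span of 5533 bases, so each matches exon sequence on both sides of an intron. No part is set in capitals, as the position of the junction was not given.
Etv4 probe: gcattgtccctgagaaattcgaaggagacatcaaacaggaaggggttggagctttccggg
Etv5 probe: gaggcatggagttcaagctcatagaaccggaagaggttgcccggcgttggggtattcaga

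Whether the maternal diet or the day changed the kinase transcript or its targets was asked first. No member did so beyond the spread between rats. Of the 11 member probes that could be tested (limma, Benjamini-Hochberg over 23209 probes), 0 were called in LP against NP at day 21, at day 28 and over both days, where 0% of all tested probes were called in each. Likewise 0 of 11 were called for day 28 against day 21 in NP rats (background 0.25%), in LP rats (0%) and over both diets (1.81%), and 0 of 11 for the change of the diet difference between the days (0%). At an unadjusted p under 0.05 stood 1 of 11 probes for LP against NP over both days, where 11.9% of all probes did, and 1 of 11 for the days in NP rats, where 12.8% did. For each of the 11 member probes the arrays of the groups overlapped in all 6 comparisons of groups, while the share of all probes without overlap was 11.5% for the diets at day 21, 16.8% at day 28, 18.7% for the days in NP rats, 18.7% for the days in LP rats, 1.06% for the diets over both days and 3.73% for the days over both diets.

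**Figure D1:**
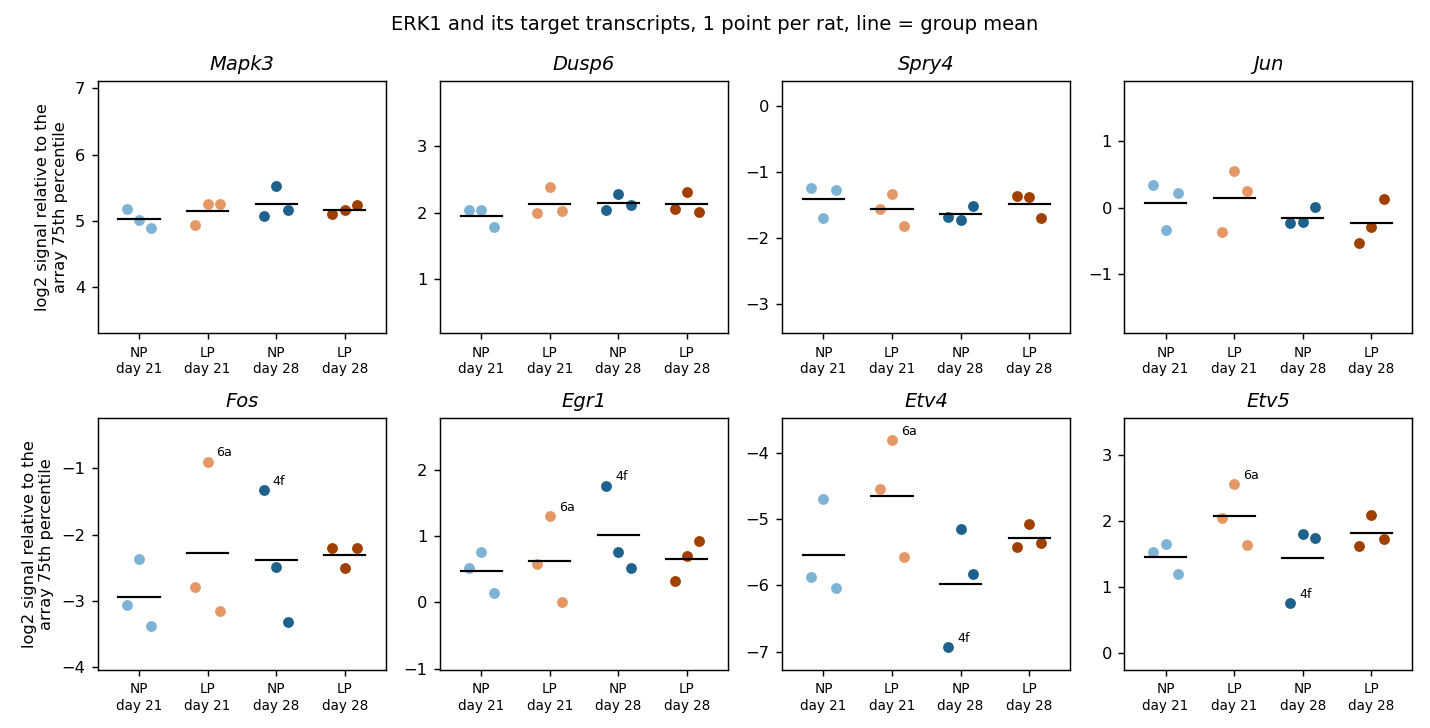
Log2 signal relative to the array's 75th percentile (vertical axis, the same 3.8 unit span in each panel) of the main probe of 8 genes in the 4 groups of diet and day, 1 point per rat with the group mean as a line. Mapk3, Dusp6 and Spry4 stayed within narrow bands, while Fos, Egr1, Etv4 and Etv5 spread more widely. LP 6a and NP 4f, marked by name, were the highest pair of all rats for Fos and Egr1. For Etv4 and Etv5 LP 6a was the highest and NP 4f the lowest.

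Mapk3 itself was among the steady transcripts. In NP rats at day 21 its log2 signal was 5.19, 5.02 and 4.89, and in LP rats of the same day 4.94, 5.26 and 5.26. At day 28 it was 5.08, 5.53 and 5.17 in NP rats and 5.10, 5.17 and 5.25 in LP rats. The 4 groups overlapped throughout. The LP minus NP difference was 0.12 ± 0.14 (SE, n = 3 per group, limma adjusted p = 0.925) at day 21, with a 95% interval from -0.20 to 0.44, and -0.09 ± 0.14 (adjusted p = 0.814) at day 28, from -0.41 to 0.23. The day 28 minus day 21 difference was 0.23 in NP rats and 0.02 in LP rats, with adjusted p of 0.544 and 0.974. Within groups the SD of Mapk3 was 0.172, and 39.6% of the 19966 probes well above background on all arrays had a lower one. Before scaling its spots read 58681 to 84278. Its highest level, in NP rat 5f of day 28, came from the array with the lowest 75th percentile (1451). Its lowest level, in NP rat 6a of day 21, came from the array with the highest (2370). The Mapk3 spots of that array disagreed. They read 84278 and 58681, the highest and the lowest of all arrays, or 5.15 and 4.63 as log2 signals. The part of the scaling and of single spots in the differences of Mapk3 between rats was not tested.

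The feedback inhibitors moved as little as the kinase. Dusp6 encodes a phosphatase that removes the activating phosphates from ERK. It was read on 10 spots per array, whose median SD within an array was 0.0425 against 0.167 between rats of a group. Its log2 signal was 2.04, 2.04 and 1.78 in NP rats and 1.997, 2.39 and 2.02 in LP rats at day 21, and 2.04, 2.29 and 2.12 in NP rats and 2.06, 2.31 and 2.01 in LP rats at day 28. All 4 groups overlapped, and LP rat 6a gave the highest value. The difference between the diets was 0.18 ± 0.14 (limma adjusted p = 0.872) at day 21 and -0.02 ± 0.14 (adjusted p = 0.956) at day 28.

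Spry4 belongs to the Sprouty family of inhibitors of receptor tyrosine kinase signalling. Its main probe read -1.25, -1.70 and -1.28 in NP rats and -1.56, -1.33 and -1.81 in LP rats at day 21, then -1.68, -1.73 and -1.52 in NP rats and -1.37, -1.39 and -1.70 in LP rats at day 28. Neither diet nor day separated these values. The diet difference was -0.16 ± 0.17 (limma adjusted p = 0.908) at day 21 and 0.16 ± 0.17 (adjusted p = 0.708) at day 28. A second Spry4 probe, between -3.78 and -2.83 over the arrays, did not follow the first (Pearson r = -0.19, Spearman rho = 0.06 over 12 arrays). That probe was the one with an unadjusted p under 0.05 for the days in NP rats, 0.42 higher at day 28 (SE 0.16, limma adjusted p = 0.323), where the main probe was 0.23 lower, so the direction for Spry4 rests on the probe chosen.

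Among the immediate-early genes, Jun, which encodes a partner of FOS in the AP-1 dimer, differed by less than the spread between rats. At day 21 its log2 signal was 0.34, -0.34 and 0.22 in NP rats and -0.37, 0.54 and 0.26 in LP rats. At day 28 it was -0.24, -0.22 and 0.00 in NP rats and -0.53, -0.29 and 0.13 in LP rats. The diets overlapped on each day, and the LP rats spanned the wider range. Diet differences were 0.07 ± 0.26 (limma adjusted p = 0.978) at day 21 and -0.08 ± 0.26 (adjusted p = 0.916) at day 28.

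Fos showed the widest spread within groups of the members, with an SD of 0.83, and 97.5% of probes well above background on all arrays had a lower SD. In NP rats at day 21 its log2 signal was -3.07, -2.36 and -3.37, and in LP rats -2.79, -0.90 and -3.15. At day 28 the NP rats had -1.33, -2.49 and -3.32 and the LP rats -2.20, -2.50 and -2.20. A single rat in each of 2 groups, LP 6a at day 21 and NP 4f at day 28, lay above every other rat by more than 0.8 units. The LP minus NP difference was 0.65 ± 0.61 (limma adjusted p = 0.898) at day 21 and 0.08 ± 0.61 (adjusted p = 0.968) at day 28. Without LP rat 6a the day 21 difference was -0.04. Both spots of the Fos probe agreed on each array, with a median SD of 0.0622.

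Egr1, a zinc finger transcription factor, was high on the same pair of arrays. Its main probe read 0.52, 0.76 and 0.14 in NP rats and 0.58, 1.30 and 0.01 in LP rats at day 21, and 1.76, 0.76 and 0.51 in NP rats and 0.31, 0.70 and 0.93 in LP rats at day 28. NP rat 4f was highest and LP rat 6a next, and the groups overlapped. Diet differences were 0.16 ± 0.38 (limma adjusted p = 0.961) at day 21, turning to -0.18 without LP rat 6a, and -0.36 ± 0.38 (adjusted p = 0.706) at day 28, turning to 0.01 without NP rat 4f. The second Egr1 probe, which ranged from -2.35 to 0.11, gave its 2 highest values on the same arrays and followed the first with r = 0.76 (Spearman rho = 0.63, 12 arrays). The median SD between the 10 spots of the main probe was 0.0424, against 0.511 between rats of a group.

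Fosl1, which encodes the FOS relative FRA1, was well above background on 1 of 12 arrays and was not tested. Its measured log2 signals lay between -8.49 and -7.05, and its spots of the same array differed with a median SD of 0.497, close to the 0.555 between rats, so no fold change is given.

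Etv4 and Etv5, which act downstream of fibroblast growth factor receptors in branching epithelia, had the largest LP minus NP differences, apart from that of Fos at day 21, and none was called. For Etv4 the log2 signal was -5.88, -4.69 and -6.04 in NP rats and -4.55, -3.82 and -5.58 in LP rats at day 21. At day 28 it was -6.93, -5.16 and -5.84 in NP rats and -5.43, -5.07 and -5.36 in LP rats. The LP rats were higher on average on both days with overlap on each, and the lowest value of all was that of NP rat 4f. Etv4 was dim. Before scaling its spots read 15.1 to 143.9, and those of Fosl1 read 4.3 to 24.3. In NP rat 4f the Etv4 spots read 15.1, which was not well above background, and 19.3, which was. The LP minus NP difference of Etv4 was 0.89 ± 0.54 (limma adjusted p = 0.861) at day 21 and 0.69 ± 0.54 (adjusted p = 0.630) at day 28. Over both days it was 0.79 ± 0.38 (adjusted p = 0.422), or 1.73-fold.

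Etv5 gave 1.54, 1.65 and 1.196 in NP rats and 2.05, 2.55 and 1.63 in LP rats at day 21, and 0.76, 1.81 and 1.74 in NP rats and 1.61, 2.10 and 1.73 in LP rats at day 28. LP rat 6a was again highest and NP rat 4f lowest. The diet difference was 0.61 ± 0.31 (limma adjusted p = 0.861) at day 21 and 0.38 ± 0.31 (adjusted p = 0.637) at day 28. Over both days it was 0.50 ± 0.22, or 1.41-fold, with an unadjusted p of 0.047 and an adjusted p of 0.418 by limma, the only member probe under 0.05 unadjusted in a diet comparison. The second Etv5 probe, the one that spans an intron, ranged from -4.34 to -2.41, followed the first with r = 0.89 (Spearman rho = 0.81, 12 arrays) and differed by 0.40 ± 0.23 (adjusted p = 0.448) over both days. Without LP rat 6a the day 21 difference was 0.48 for Etv4 and 0.38 for Etv5, and without NP rat 4f the day 28 difference was 0.21 and 0.039. Other single rats moved it the other way for Etv4, to 1.36 at day 21 without LP rat 7c and to 1.10 at day 28 without NP rat 5f, and without LP rat 6f that of Etv5 at day 28 was 0.24. Over both days the Etv5 difference was 0.33 without NP rat 4f. Without LP rat 6a and NP rat 4f together, an alternative added after the values were seen, the difference over both days was 0.34 for Etv4 and 0.21 for Etv5.

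**Figure D2:**
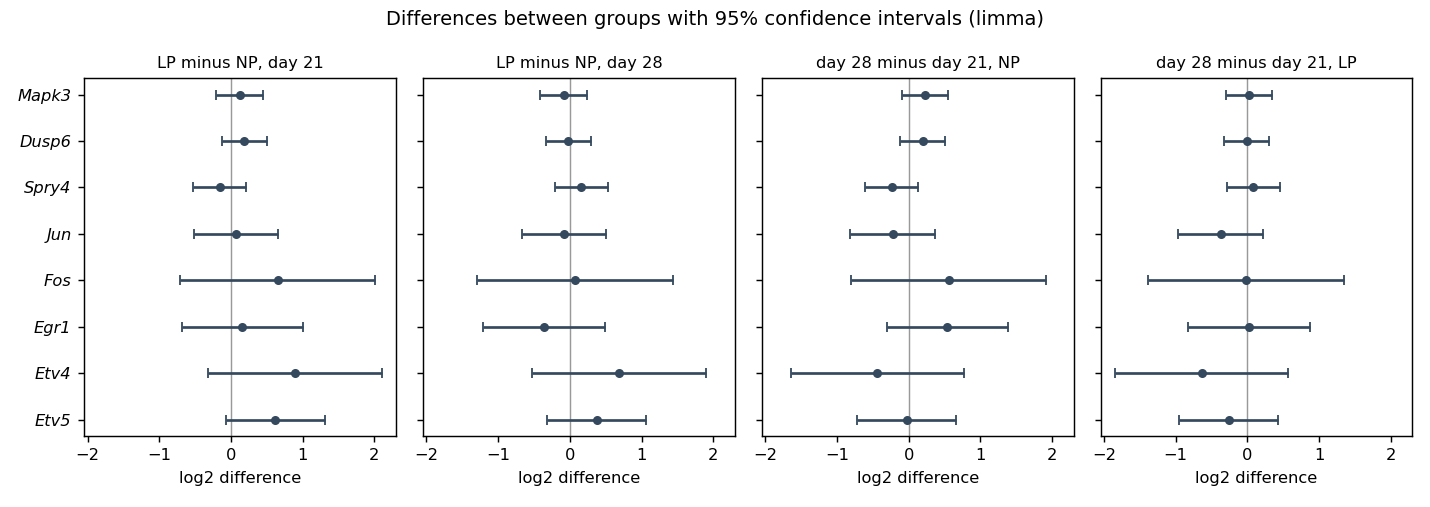
Log2 differences with 95% confidence intervals (horizontal axis) of 8 genes for LP minus NP at day 21 and at day 28 and for day 28 minus day 21 in NP and in LP rats, from limma over 12 arrays. All 32 intervals include 0, and those of Mapk3, Dusp6 and Spry4 are the narrowest while those of Fos and Etv4 are the widest.

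Set against each other, the kinase and its targets did not vary as 1 block from rat to rat. Correlations of the main probes over the 12 arrays were computed for the 28 pairs of the 8 genes above background, and 2 pairs passed a Benjamini-Hochberg adjusted permutation p of 0.05. Etv4 and Etv5 rose and fell together, with Pearson r = 0.915 (two-sided permutation p = 0.00018, adjusted p = 0.00504) and Spearman rho = 0.853 (permutation p adjusted 0.0241). Their r was 0.922 within day 21 and 0.944 within day 28, and 0.715 without the 2 arrays whose Etv4 lay farthest from the median, LP 6a and NP 4f. Fos and Egr1 formed the other pair, with r = 0.840 (permutation p = 0.00095, adjusted p = 0.0133) and rho = 0.762 (permutation p adjusted 0.0783). Within day 21 their r was 0.931 and within day 28 it was 0.759, and without LP 6a and NP 4f it was 0.635. With both of those arrays left out, 0 of 28 pairs passed the adjusted permutation test. Neither call held over the remaining arrays, which are also fewer, and without NP 4f alone 6 pairs passed.

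Between the pairs the correlations were positive at day 21 and negative at day 28. Fos and Etv5 had r = 0.881 over the 6 arrays of day 21 (exact permutation p = 0.0264) and r = -0.741 over those of day 28 (exact permutation p = 0.0958), and Egr1 and Etv4 had r = 0.857 and -0.767 (exact permutation p = 0.025 and 0.124). Over all 12 arrays r was 0.181 and -0.00968, and without LP 6a and NP 4f, the arrays farthest from the median of Fos and of Egr1, it was 0.417 and 0.533. LP rat 6a combined high Fos with high Etv5, while NP rat 4f combined high Fos with the lowest Etv5. Whether the correlation differed between the days was not tested. Mapk3 correlated with Dusp6 at r = 0.669 (permutation p = 0.0182, adjusted p = 0.127), and at 0.395 without NP rats 6a of day 21 and 5f of day 28. The arrays of those rats had the highest and the lowest 75th percentile of signal. With Fos, Jun, Egr1, Etv4 and Etv5 the r of Mapk3 was between 0.141 and 0.319, and with Spry4 it was -0.321. Without the same NP rats 6a and 5f the r of Mapk3 with Jun rose to 0.781 (Spearman rho over all 12 arrays 0.524). With Fos, Egr1, Etv4 and Etv5 it was then between -0.0819 and 0.217.

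**Figure D3:**
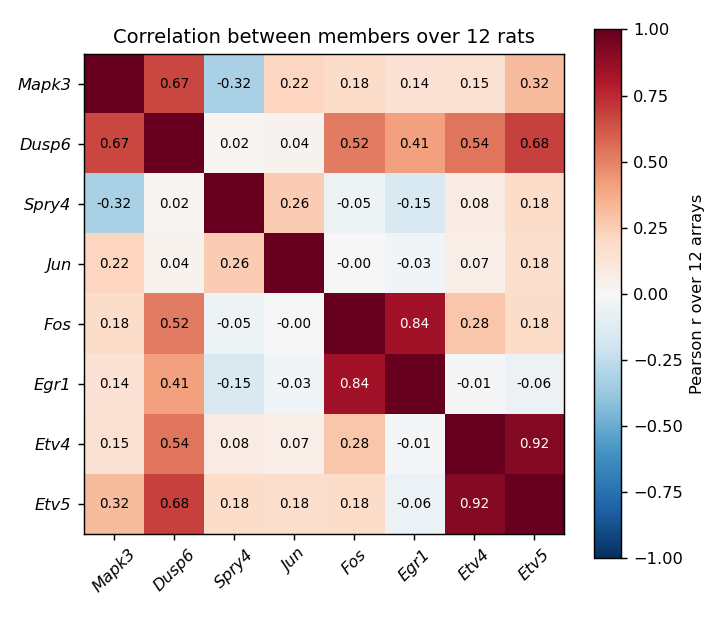
Pearson r over 12 arrays (colour scale from -1 to 1, value printed in each cell) for each pair of the 8 genes well above background on all arrays. Etv4 with Etv5 (0.92) and Fos with Egr1 (0.84) are the highest, and Mapk3 reaches 0.67 with Dusp6 but at most 0.32 with the transcription factors.

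Etv4 and Etv5 moved with the epithelial markers of the same glands. The mean log2 signal of 15 luminal epithelial genes, among them the keratins Krt8 and Krt18 and the adhesion gene Epcam, was -1.56, -0.44 and -1.29 in NP rats and -0.26, 0.47 and -1.16 in LP rats at day 21. At day 28 it was -1.67, -0.51 and -0.69 in NP rats and -0.41, -0.21 and -0.43 in LP rats. All 15 luminal genes were higher on average in LP rats on each day, with a median difference of 0.81 at day 21 and 0.53 at day 28 against 0.01 and -0.05 over all tested probes, and 0 of 15 were called. As a description over 12 arrays that share dissection and depth of signal, Etv4 followed the luminal level with r = 0.900 (rho = 0.888), 0.983 within day 21 and 0.975 within day 28, and Etv5 with r = 0.886 (rho = 0.832), 0.897 and 0.957 within the days. Against the mean of 9 basal epithelial genes r was 0.930 for Etv4 and 0.929 for Etv5.

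With the luminal level as a covariate, an alternative added after the values were seen, the LP minus NP difference over both days was -0.04 ± 0.14 for Etv4 and 0.08 ± 0.15 for Etv5, against 0.79 and 0.50 without it. In the same model Etv4 was 0.60 lower at day 28 than at day 21 over both diets (SE 0.11, limma adjusted p = 0.0376), the single member call under any setting, where 2.01% of all probes were called. In each diet taken alone the day difference of Etv4 at equal luminal level was -0.61 in NP rats (adjusted p = 0.178) and -0.60 in LP rats (adjusted p = 0.280). As each day was hybridised on its own slide, day and slide cannot be told apart in this value. It also rests on the dim signals of Etv4 given above. The luminal level was read from the same arrays and was itself higher on average in LP rats on both days. A fit with it as a covariate therefore cannot tell diet from epithelial content. The part of epithelial content in the differences of Etv4 and Etv5 was not tested.

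For Fos and Egr1 the relation to the epithelium depended on single rats. Fos had r = 0.888 with the luminal level at day 21 and -0.613 at day 28, and Egr1 0.828 and -0.844, with NP rat 4f low in epithelium and high in both transcripts. Over all 12 arrays r was 0.400 for Fos and 0.122 for Egr1. Without the 2 arrays farthest from the median luminal level, NP 4a of day 21 and NP 4f of day 28, it was 0.877 and 0.873, close to the 0.874 of Etv4 and 0.903 of Etv5 over the same 10 arrays. Dusp6 had r = 0.636 over 12 arrays, Spry4 0.0708, Jun -0.0932 and Mapk3 0.202.

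**Figure D4:**
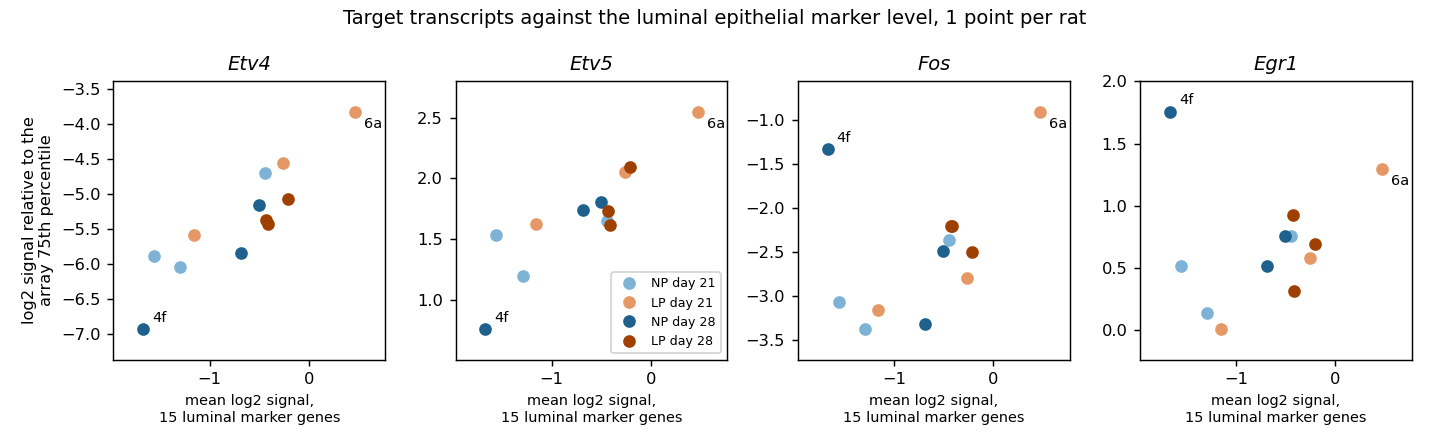
Log2 signal of Etv4, Etv5, Fos and Egr1 relative to the array's 75th percentile (vertical axes) against the mean log2 signal of 15 luminal epithelial marker genes on the same array (horizontal axis), 1 point per rat, coloured by group. Etv4 and Etv5 climb with the marker level (r = 0.90 and 0.89), whereas for Fos and Egr1 NP rat 4f sits high at the lowest marker level.

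Other genes of the relay gave no call either. A list of 27 tested genes of the ERK cascade ran from adaptors such as Grb2 to the ribosomal S6 kinases and the kinases Mknk1 and Mknk2. Of these, 0 were called in any of the 7 comparisons. The median LP minus NP difference was -0.03 at day 21 and -0.04 at day 28, against 0.01 and -0.05 over all probes. Rasgrp1, a RAS exchange factor known from lymphocytes, had the lowest unadjusted p of this list for the diet over both days, at -0.82 ± 0.28 (limma adjusted p = 0.418), and lymphocyte markers were lower in LP rats for 12 of 12 genes. The part of lymphocyte RNA in that difference was not tested. Rps6ka3, which encodes the ribosomal S6 kinase RSK2, was 0.29 lower at day 28 over both diets (SE 0.06, limma adjusted p = 0.0594).

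Among 29 other immediate-early genes, 0 were called in any comparison. For the diet over both days 21 of 29 were lower in LP rats, with a median of -0.15 against -0.02 over all probes. Ier5 differed by -0.37 ± 0.11 and Socs3, an inhibitor of cytokine signalling, by -0.35 ± 0.12 (limma adjusted p = 0.418 for both). For the days over both diets, Zfp36, which encodes an RNA-binding protein that shortens the life of cytokine messages, was 0.77 higher at day 28 (SE 0.20, limma adjusted p = 0.0841). NP rat 4f had the highest Junb (2.87 against 1.64 to 2.26 elsewhere), Zfp36 (-1.85), Maff (-3.51) and Ier2 (2.68) of all rats, named after their values were seen. LP rat 6a did not share this, with Junb at 2.03 and Zfp36 at -3.30, though its Ier3, at -0.40, was the highest of all. Dusp2 and Nr4a3 were lowest on that array, at -4.68 and -7.55, where the lymphocyte markers were lowest as well.

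Of 17 other feedback and output genes, such as the Sprouty and Spred inhibitors and the cyclin gene Ccnd1, 0 were called. At day 21, 13 of 17 were higher in LP rats, with a median of 0.26 against 0.01 over all probes. Spry1 had the lowest p, at 0.34 ± 0.13 (limma adjusted p = 0.861), followed by Dusp5 at 0.67 ± 0.30 (adjusted p = 0.861). In LP rats 14 of 17 were lower at day 28 than at day 21, with Spry1 at -0.43 ± 0.13 and Etv1, the third gene of the PEA3 group, at -0.61 ± 0.20 (limma adjusted p = 0.350 and 0.369). From rat to rat, 8 of 15 genes of this list had r above 0.6 with Etv4, where 12.1% of all probes did, among them Ccnd1 (0.861), Spry1 (0.793), Epha2 (0.784) and Spry2 (0.766). Epithelial markers did so in larger shares, 13 of 14 luminal and 6 of 8 basal genes. With Fos none of the 15 feedback and output genes had r above 0.6, which is near the share of 3.34% of all probes.

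Among 8 ternary complex and serum response factors, which bind the promoters of immediate-early genes, 0 were called. Elk3 had the lowest p for the diet over both days, at -0.42 ± 0.11 (limma adjusted p = 0.418), and Mkl1 followed at -0.27 ± 0.08 (adjusted p = 0.418). RefSeq promoters of the GRCr8 build, 250 bases before to 50 after the start, were at hand for 5 of the 9 members. On either strand the window of Egr1 held 2 CArG boxes, the binding motif of the serum response factor, and those of Dusp6, Etv5, Fosl1 and Spry4 held 0. A CArG box was present in 1.64% of 33469 promoters of that length. The 5 letters TGACG, the core of the cyclic AMP response element, occurred in the windows of Egr1 and Fosl1 (21.2% of all promoters), and CCGGAA, an ETS motif, in that of Spry4 (14.95% of all).

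The patterns most alike over 12 arrays were sought among 17430 genes well above background on all of them. Ier3, an immediate-early gene itself, was closest to Fos (r = 0.946), followed by Ulk1 (0.927), Mpzl2 (0.927), Mxi1 (0.909) and LOC303590 (0.902). For Egr1 the named genes among the first 5 were Mxi1 (0.900), Pyroxd1 (0.899) and Nudt2 (0.895), behind 2 transcripts known by accession only. Dusp6 was closest to Popdc2 (0.903), Slc6a2 (0.902), Dd25 (0.890), Fam89a (0.884) and Commd2 (0.882). Of the 5 closest to Mapk3 only Abca16 (0.944) had a gene name. Etv4 and Etv5 were added after their values were seen. The nearest named genes were Ggt1 (0.980), Duoxa1 (0.973) and Cryl1 (0.969) for Etv4, and Bmp7 (0.979) and Tnfrsf12a (0.969) for Etv5.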

How the data were processed

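Per the labels, total RNA was amplified and labelled with Cy3. For each of 12 arrays the authors deposited a table from Agilent Feature Extraction, with a processed intensity per spot, corrected for background within the array and not normalized between arrays, and a table of the same intensity as a ratio to the array's median. The table served as an alternative. Control spots (4259) and flagged spots (259 to 766 per array) were left out, the 75th percentile of each array was subtracted from its log2 intensity, and spots of a probe were averaged. A probe entered the tests when 3 or more arrays read it well above background, which left 23209. The test was limma 3.58.1 (R 4.3.3), 1 fit over the 4 groups, with Benjamini-Hochberg adjustment and a threshold of 0.05. On simulated data for the diet at day 21, 99 of 200 changes of 1 log2 unit and 173 of 200 of 2 units were recovered, with 9 and 13 wrong calls. Recovery was not split by spread. The within-group SD was 0.83 for Fos, 0.736 for Etv4 and 0.511 for Egr1, against a median of 0.204 over probes well above background on all arrays. The probe with the highest mean signal stood for a gene. Correlations used 100000 permutations, or all within a day. The members and gene lists were chosen with earlier results of these data known. Genes named from lists were the largest called differences or, where fewer than 2 were called, the 2 lowest p-values, given here for the lists that bear on ERK. The number of arrays limits the precision.

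Alternatives were quantile normalization, normexp background, other filters, fits on the compared arrays alone, moderated trends, blocks, the row on the slide, 1 probe per gene and each array left out.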

Additional observations from a re-analysis of the deposited data

How the results depend on the processing

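No member probe was called in any of the 7 comparisons under the alternatives set out above, the replicate block included (0 of 11 in each), and the lowest adjusted p of a member probe was then 0.167, for the days over both diets without NP rat 4f. Whether the numbers in the labels pair the rats was not settled. Rats of different diets had different mothers, so a shared number was not a shared litter there. Same-numbered rats deviated together with r between -0.0553 and 0.379, and no value for rats of different numbers stands beside these. With the replicate block the diet difference over both days was 1.46 for Etv4 and 0.77 for Etv5. NP rats 5a and 5f and LP rats 7c and 7f had no same-numbered rat of the other diet. With the block these rats do not enter the diet difference over both days, so the larger values come from the remaining rats. With normexp the difference was 0.45 for Etv4. With the luminal level as a covariate 1 member probe, that of Etv4, was called for the days over both diets. For the correlations 2 pairs passed, 1 pair by rank correlation, 0 with LP 6a and NP 4f left out, and 2 to 6 with each array left out in turn. The luminal covariate, the omission of both arrays and the alternatives for the correlations were chosen after seeing the data.

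The signs of small differences turned as follows, and the cause was not tested. Under quantile normalization Mapk3 gave 0.021 for the diet at day 28, -0.086 for the days in LP rats and -0.034 for the days over both diets, Spry4 0.0037 for the diet over both days and Fos 0.014 for the days in LP rats. Under normexp the diet over both days gave 0.020 for Jun and 0.024 for Spry4, the days in LP rats 0.019 for Dusp6 and the days over both diets 0.058 for Spry4. With the replicate block Jun gave -0.17 for the diet at day 21, Dusp6 0.091 at day 28 and Spry4 0.021 over both days. With the row on the slide as a covariate the diet at day 21 gave -0.023 for Mapk3, -0.34 for Jun and -0.031 for Egr1, at day 28 -0.13 for Fos, and over both days -0.13 for Mapk3, -0.022 for Dusp6 and 0.062 for Spry4. The authors' table gave 0.0048 for Dusp6 for the days in LP rats.

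Without LP 6a and NP 4f the diet gave -0.038 for Fos, -0.13 for Jun and -0.18 for Egr1 at day 21, 0.0091 for Egr1 at day 28, and -0.057 for Mapk3 and -0.012 for Dusp6 over both days. The days gave 0.045 for Etv4 and 0.31 for Etv5 in NP rats, 0.67 for Fos and 0.12 for Dusp6 in LP rats and 0.14 for Etv5 over both diets, and the change between the days 0.64 for Fos, 0.0076 for Jun and 0.18 for Egr1. At equal luminal level the diet gave -0.048 for Etv4 at day 21, -0.18 for Fos and -0.036 for Etv4 at day 28, and -0.022 for Mapk3, 0.039 for Jun, -0.047 for Dusp6 and -0.042 for Etv4 over both days, and the change between the days 0.012 for Etv4.

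With each array left out in turn, the diet at day 21 ranged from -0.18 to 0.47 for Egr1, -0.038 to 1.09 for Fos and -0.14 to 0.33 for Jun. At day 28 it ranged from -0.11 to 0.047 for Dusp6, -0.61 to 0.0091 for Egr1, -0.39 to 0.60 for Fos, -0.26 to 0.069 for Jun and -0.18 to 0.048 for Mapk3, and over both days from -0.27 to 0.084 for Egr1, -0.11 to 0.12 for Jun, -0.030 to 0.083 for Mapk3 and -0.073 to 0.061 for Spry4. The days in NP rats ranged from -0.84 to 0.045 for Etv4 and -0.21 to 0.31 for Etv5. In LP rats they ranged from -0.10 to 0.12 for Dusp6, -0.29 to 0.35 for Egr1, -0.45 to 0.67 for Fos, -0.085 to 0.075 for Mapk3 and -0.040 to 0.20 for Spry4, and over both diets from -0.26 to 0.025 for Etv5. The change between the days ranged from -0.68 to 0.21 for Etv4, -0.58 to 7.7e-05 for Etv5, -1.05 to 0.11 for Fos and -0.41 to 0.058 for Jun.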
